A study of Mus musculus with 2 samples.

Results

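Somites are cut at regular intervals from the presomitic mesoderm, and 10 genes that specify this tissue or run its segmentation clock were followed in mouse embryo trunks that lack Aldh1a2. The genes are Tbx6, Msgn1, Dll1, Dll3, Hes7, Lfng, Mesp2, Ripply2, Notch1 and Nrarp. They were chosen by symbol, and each has a row of its own among the 24340 genes of the expression table. Trunk tissue of Aldh1a2-/- embryos was set against trunk tissue of wild-type embryos, both at embryonic day 8.5 and both from mice kept on normal chow, with 1 RNA-seq sample of each genotype. Aldh1a2, also called Raldh2, encodes the retinaldehyde dehydrogenase that makes retinoic acid (RA) in trunk mesoderm. The Aldh1a2-/- embryos came from matings of heterozygous parents and carry the mutation in all tissues, so a difference in any cell type of the trunk can contribute. The study's methods mention 2 trunks of each genotype, whereas the labels give a single sample of each. Head, pharyngeal region and heart had been cut away, and so had the caudal tissue behind the youngest somite. Much of the presomitic mesoderm itself was thus outside the dissected piece, and the values below belong to whatever remained at the caudal cut and to other trunk cells that use the same genes.

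As background, presomitic mesoderm is the unsegmented tissue on either side of the caudal neural tube. Its cells need the T-box factor Tbx6 and the bHLH factor Msgn1 to become paraxial mesoderm. Notch signaling then oscillates in them: the ligand Dll1 activates Notch1, the repressor Hes7 periodically shuts off its own gene and Lfng, and Lfng adds sugar to Notch and alters its response to ligand. At the front of the tissue Mesp2 marks the next border, and Ripply2 ends the segmentation programme of Tbx6 and Mesp2. RA from the somites opposes caudal Fgf8, which holds presomitic cells in an immature state.

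Levels were taken as FPKM, the number of sequenced fragments scaled by the length of the transcript and the depth of the library. A gene was called measured where it exceeded 0.5 FPKM in both samples, and its difference was given as log2 of the Aldh1a2-/- level divided by the wild-type level. Genes below -0.85 were called lower and genes above 0.85 higher, with the floor and cutoffs of the study. Since each genotype had 1 sample, there was no test and no error between replicates for any value given here. Aldh1a2 itself was at 11.7 FPKM in the Aldh1a2-/- sample and at 128 FPKM in the wild-type sample, a log2 ratio of -3.45, so the labels fit the targeted gene although its transcript was not lost altogether. Of 9506 measured genes 22.0% were lower and 23.6% were higher, 45.6% in all. Among 77 mitochondrial ribosomal protein genes, which cells of all types use, 73 were measured. Of these 20 were lower and 18 higher (52.1%), with log2 ratios between -3.78 and 4.49 and an SD over genes of 1.60. The share of measured genes past a cutoff was 68.1%, 57.1%, 45.8%, 36.0% and 20.8% over 5 equal classes of mean level, lowest class first. Depth, estimated from the steps between low values, was about 29100000 fragments for Aldh1a2-/- and 28100000 for wild-type.

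Of the 10 genes 6 were measured, and all of these lay past a cutoff, 3 on each side. Dll1, Lfng and Nrarp were lower in Aldh1a2-/- trunk, against 22.0% of all measured genes. Dll3, Hes7 and Notch1 were higher, against 23.6% of all measured genes. Their median log2 ratio was 0.01, beside 0.02 over all measured genes, so the group had no common direction. Tbx6 was detected only in the Aldh1a2-/- sample, being listed at 0 in wild-type like 5.21% of the 12354 genes above the floor in either sample. Mesp2 was above the floor only in wild-type and was listed at 0 in Aldh1a2-/-, like 11.9% of those genes. Msgn1 and Ripply2 were listed at 0 in both samples, as were 11015 genes (45.3%) of the table. All values come from whole trunk, where fewer cells of a type and less RNA per cell cannot be told apart.

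**Figure D1:**
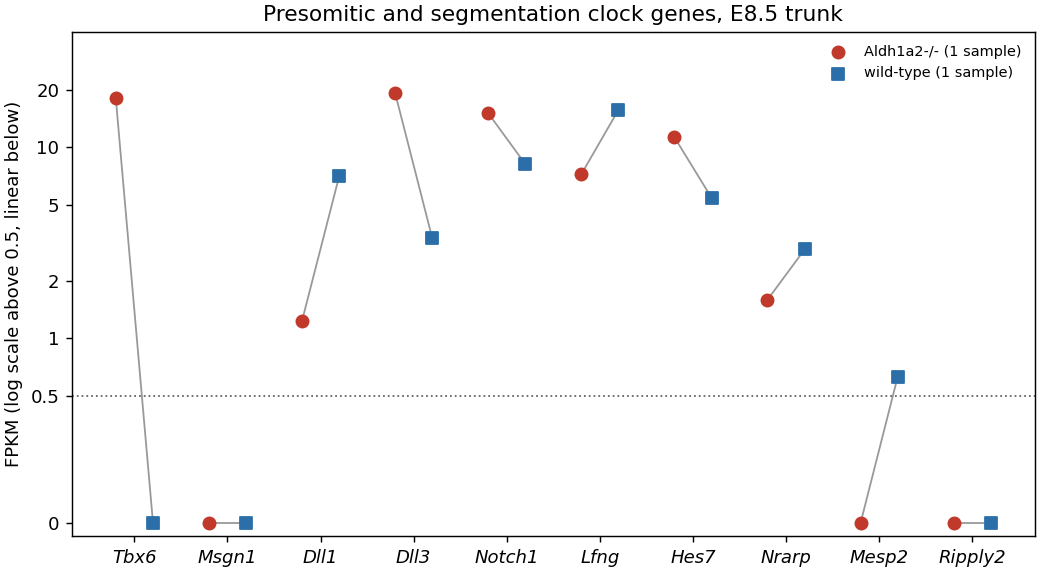
FPKM of each of the 10 genes in the Aldh1a2-/- sample (left point of each pair) and the wild-type sample (right point), joined by a line and drawn as single values with no error bar since each genotype has 1 sample. Dll3, Tbx6, Notch1 and Hes7 stand higher in Aldh1a2-/-, Lfng, Dll1 and Nrarp stand higher in wild-type, and points on the zero line are genes listed at 0.

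The order of the genes by level differed between the genotypes. In the Aldh1a2-/- sample Dll3 was the most abundant at 19.3 FPKM, followed by Tbx6 (18.1), Notch1 (15.1), Hes7 (11.3), Lfng (7.21), Nrarp (1.59) and Dll1 (1.23). In the wild-type sample Lfng led at 15.7 FPKM, followed by Notch1 (8.16), Dll1 (7.06), Hes7 (5.44), Dll3 (3.34), Nrarp (2.92) and Mesp2 (0.630). Hes7 and Nrarp held the same places, 4 and 6, in both lists. Whether neighbours in these orders differ cannot be judged without replicates. Summed over the 10 genes, the level was 73.8 FPKM in Aldh1a2-/- and 43.2 FPKM in wild-type, with Tbx6 and Dll3 differing by the most.

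Tbx6 (chr7:126781483-126785548, plus strand, mm10) encodes the T-box factor that gives cells a paraxial mesoderm fate in place of a neural fate. It was at 18.1 FPKM in Aldh1a2-/-, which is about 907 fragments for its longest coding transcript, and was listed at 0 in wild-type, so no fold is given. A level of 0 could be a failed estimate, since 2 of the 77 mitochondrial ribosomal protein genes were also listed at 0 in wild-type alone and 2 in Aldh1a2-/- alone. Tbx6 was not alone at its level: 58 genes listed at 0 in wild-type, itself included, reached at least 18.1 FPKM in Aldh1a2-/-. Its neighbor Ypel3, chosen here after its values were seen, lies 968 bases upstream on the same strand (chr7:126776975-126780514) and showed the reverse. Ypel3 was listed at 0 in Aldh1a2-/- and was at 18.4 FPKM in wild-type. It too was not alone, since 74 genes listed at 0 in Aldh1a2-/-, itself included, were at least as high in wild-type. How often adjacent genes differ in this way was not counted. Thus the samples mirrored each other at these adjacent genes, and whether fragments were assigned to different genes in the samples was not tested. Ppp4c, which ends 319 bases past Tbx6 on the opposite strand, was at 108 FPKM in Aldh1a2-/- and 127 FPKM in wild-type.

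Msgn1 (chr12:11208382-11208948, minus strand), the bHLH factor of the posterior presomitic mesoderm, is a short gene with a single exon. It was listed at 0 in both trunks, and so were Wnt3a and Fgf4, signals of the tail bud. These 3 of 15 posterior presomitic and tail bud genes were thus not detected in either dissection. A level of 0 could be a failed estimate here as well. Of the same 15 genes 9 were measured in both samples, among them T (21.0 FPKM in Aldh1a2-/- and 17.7 FPKM in wild-type). Tbx6 was detected in the Aldh1a2-/- sample only.

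The ligands Dll1 and Dll3 differed in opposite directions by almost the same factor. Dll1 (chr17:15367354-15375823, minus strand), which activates Notch on adjacent cells, was at 1.23 FPKM in Aldh1a2-/- and at 7.06 FPKM in wild-type. The log2 ratio was -2.52, 5.73-fold higher in wild-type, and the 95% interval for counting error alone (exact Clopper-Pearson, from about 128 fragments in Aldh1a2-/- and 711 in wild-type) was -2.80 to -2.25. Dll3 (chr7:28293555-28301785, minus strand), a divergent ligand that does not activate Notch on neighbors and acts within the cell, was at 19.3 FPKM in Aldh1a2-/- and at 3.34 FPKM in wild-type. Its log2 ratio was 2.53, 5.78-fold higher in Aldh1a2-/-, with an interval of 2.34 to 2.73 from about 1470 fragments in Aldh1a2-/- and 246 in wild-type. In Aldh1a2-/- Dll3 was thus 15.7 times as abundant as Dll1, whereas in wild-type Dll1 was 2.11 times as abundant as Dll3. Together the pair came to 20.6 FPKM in Aldh1a2-/- and 10.4 FPKM in wild-type. These intervals leave out the difference between embryos. Ratios at least as far from 0 as that of Dll1 were found in 8.90% of measured genes and in 8 of the 73 measured mitochondrial ribosomal protein genes (11.0%).

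The starts of all 10 genes in the table coincide with RefSeq starts (GRCm38.p6, the assembly of mm10). The 250 bases before the start are shown for Dll1 (chr17:15375824-15376073, minus strand) and Dll3 (chr7:28301786-28302035, minus strand), the pair with the widest and opposite differences. Capitals mark AGGTCA, a hexamer that retinoic acid receptors can bind.
Dll1: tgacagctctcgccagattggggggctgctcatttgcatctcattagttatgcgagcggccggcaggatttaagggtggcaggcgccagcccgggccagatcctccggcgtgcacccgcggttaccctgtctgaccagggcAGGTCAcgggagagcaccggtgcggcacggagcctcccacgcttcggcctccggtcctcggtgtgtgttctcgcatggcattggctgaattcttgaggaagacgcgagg
Dll3: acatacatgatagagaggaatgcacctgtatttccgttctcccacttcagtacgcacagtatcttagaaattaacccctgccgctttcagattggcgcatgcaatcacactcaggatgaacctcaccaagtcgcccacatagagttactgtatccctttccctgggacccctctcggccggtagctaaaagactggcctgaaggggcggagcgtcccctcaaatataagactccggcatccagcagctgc
The Dll1 window shown holds AGGTCA once, 109 bases before the start. The Dll3 window holds neither AGGTCA nor AGTTCA on either strand, and nor does the window at the other RefSeq start of Dll1 (chr17:15376933-15377182). AGGTCA occurs in 14.0% and AGTTCA in 11.8% of all 32851 RefSeq promoter windows of this length. A single hexamer is common and is given as a description of these letters only.

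At a distance, the study lists direct repeats of related hexamers for a chromatin domain whose differing genes include Dll3 and, among others, Numbl. Its list allowed mismatches to the consensus, and GAGTCA and GGATTA below are neither AGGTCA nor AGTTCA. The repeats are shown as candidate RA receptor elements of that domain, not of Dll3 alone. Capitals give the paired hexamers and small letters the spacer, with positions on mm10.
DR1: GAGTCAaAGTTCA
DR5: GGATTAtattgAGTTCA
The DR1 element, with a spacer of 1 base, lies at chr7:27356622-27356634, 945 kb downstream of the Dll3 start. The DR5 element, with a spacer of 5 bases, lies at chr7:28377231-28377247, 75.4 kb upstream of it. The study picked Dll3 from genes past its cutoffs in these same samples, so the direction of Dll3 is not independent evidence. Timm50, a mitochondrial import gene whose nearest end is 4040 bases from Dll3 and which was chosen here after its values were seen, was at 23.2 FPKM in Aldh1a2-/- and 88.6 FPKM in wild-type.

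Among the other ligands, Jag1, which acts in vessels among other tissues, was at 10.6 FPKM in Aldh1a2-/- and 6.33 FPKM in wild-type, within the cutoffs at a log2 ratio of 0.74. Dll4, the ligand of arterial endothelium, was listed at 0 in Aldh1a2-/- and was at 5.39 FPKM in wild-type. Jag2 was listed at 0 in Aldh1a2-/- and was at 1.07 FPKM in wild-type. Of 5 ligand genes 1 was therefore lower, 1 higher, 1 within the cutoffs and 2 listed at 0 in Aldh1a2-/- only.

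Notch1 (chr2:26457902-26503822, minus strand), the receptor needed for orderly segmentation, was at 15.1 FPKM in Aldh1a2-/- and at 8.16 FPKM in wild-type. The log2 ratio was 0.89, 1.85-fold higher in Aldh1a2-/-, just past the cutoff, with a counting interval of 0.82 to 0.97 that reaches below the cutoff, from about 4169 fragments in Aldh1a2-/- and 2176 in wild-type. With upper quartile scaling it was 0.80, within the cutoffs. Notch3, a receptor of vessel walls, showed a similar ratio of 1.00, with 13.0 FPKM in Aldh1a2-/- and 6.48 FPKM in wild-type. Notch2 was almost level at 20.4 FPKM in Aldh1a2-/- and 19.9 FPKM in wild-type (log2 ratio 0.03). Notch4, an endothelial receptor, was listed at 0 in Aldh1a2-/- and stood at 0.528 FPKM in wild-type. Notch1 made up 31.2% of the summed receptor level in Aldh1a2-/- and 23.3% in wild-type. Endothelium, which also uses Notch1, moved with it in part: of 11 measured endothelial genes of 15, 7 were higher and 1 was lower (72.7% past a cutoff, beside 45.6% of all measured genes). A further 3 were listed at 0 in Aldh1a2-/- only and 1 in wild-type only, and the part of these cells in the Notch1 value was not tested.

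Lfng (chr5:140607341-140615545, plus strand), the fringe enzyme that extends O-fucose on Notch, was at 7.21 FPKM in Aldh1a2-/- and at 15.7 FPKM in wild-type. The log2 ratio was -1.12, 2.17-fold higher in wild-type, with a counting interval of -1.28 to -0.96 from about 483 fragments in Aldh1a2-/- and 1014 in wild-type. Its relative Rfng went the other way, at 13.3 FPKM in Aldh1a2-/- and 2.90 FPKM in wild-type (log2 ratio 2.19), and the third fringe gene, Mfng, was listed at 0 in both. Pofut1, which adds the O-fucose that fringe enzymes extend, was lower at 1.38 FPKM in Aldh1a2-/- and 6.19 FPKM in wild-type (log2 ratio -2.17). Poglut1, which adds O-glucose to the same repeats of Notch, was at 0.635 FPKM in Aldh1a2-/- and 19.6 FPKM in wild-type (log2 ratio -4.95), just above the floor in the Aldh1a2-/- sample. Fbxw7, part of the ubiquitin ligase that marks cleaved Notch for destruction, was lower as well (6.82 FPKM in Aldh1a2-/- and 17.4 FPKM in wild-type). Of 9 measured genes of Notch glycosylation and trafficking, Lfng included, 4 were lower, 3 were higher and 2 lay within the cutoffs (77.8% past a cutoff, beside 45.6% of all measured genes), with a median log2 ratio of -0.61.

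Hes7 (chr11:69120453-69123259, plus strand), the repressor at the core of the clock, was at 11.3 FPKM in Aldh1a2-/- and at 5.44 FPKM in wild-type. The log2 ratio was 1.05, 2.07-fold higher in Aldh1a2-/-, with a counting interval of 0.84 to 1.26 that reaches just below the cutoff, from about 592 fragments in Aldh1a2-/- and 276 in wild-type. Nrarp (chr2:25180758-25183332, plus strand), a feedback inhibitor that binds the active Notch complex, was at 1.59 FPKM in Aldh1a2-/- and at 2.92 FPKM in wild-type. Its log2 ratio was -0.87, 1.83-fold higher in wild-type, with an interval of -1.20 to -0.54 that reaches across the cutoff, from about 120 fragments in Aldh1a2-/- and 212 in wild-type. On the TPM scale it was -0.71, within the cutoffs. Hes7 and Lfng, which cycle in the same cells, stood on opposite sides, and a link between their values was not tested. Levels of cycling genes depend on the phase of the clock when an embryo is taken, and the phase of these embryos was not recorded in the sources used here. Dll1, Hes7, Notch1 and Nrarp each overlap a gene on the other strand in GENCODE M21, and whether counting used strand is not stated.

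The promoters of Hes7 (chr11:69120203-69120452, plus strand) and Lfng (chr5:140607091-140607340, plus strand) are shown because these clock genes, both driven by Notch, differed in opposite directions. Capitals mark GTGGGAA or, read on the other strand, TTCCCAC, letters that the Notch partner RBPJ can bind.
Hes7: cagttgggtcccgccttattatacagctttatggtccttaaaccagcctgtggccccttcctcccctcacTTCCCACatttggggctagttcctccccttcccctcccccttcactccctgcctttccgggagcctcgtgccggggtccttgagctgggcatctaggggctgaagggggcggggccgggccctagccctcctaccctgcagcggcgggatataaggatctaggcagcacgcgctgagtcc
Lfng: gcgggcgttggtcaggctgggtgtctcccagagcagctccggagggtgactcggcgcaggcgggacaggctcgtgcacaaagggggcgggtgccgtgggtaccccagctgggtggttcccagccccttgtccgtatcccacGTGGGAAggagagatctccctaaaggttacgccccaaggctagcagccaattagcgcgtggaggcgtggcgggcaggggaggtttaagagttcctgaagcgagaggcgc
TTCCCAC starts 180 bases before the start of Hes7, and GTGGGAA starts 109 bases before that of Lfng. GTGGGAA was found on either strand in 3 of the 11 windows of the 10 genes (Dll1 has 2 starts), the third being that of Msgn1, and in 5.42% of all promoter windows. In Lfng it overlaps the E-box CACGTG at 112 bases before the start, and CACGTG is also found in the Nrarp window, against 6.02% of all windows. The T-box letters AGGTGT were found in none of the 11 windows and in 11.8% of all windows, and the general E-box CANNTG, which includes CACGTG, in 9 of 11 and in 66.2% of all. The shared letters of Hes7 and Lfng went with no shared direction of their levels, and binding was not measured.

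The other targets of Notch lay within the cutoffs where they were measured. Hes1, which also cycles in presomitic mesoderm, was at 11.3 FPKM in Aldh1a2-/- and 18.3 FPKM in wild-type (log2 ratio -0.69). Hey1 was at 16.1 FPKM in Aldh1a2-/- and 12.7 FPKM in wild-type (log2 ratio 0.34). Hes5, a target in neural progenitors, was at 10.1 FPKM in Aldh1a2-/- and 8.20 FPKM in wild-type (log2 ratio 0.30). Hey2, a target in vessels and heart, was listed at 0 in Aldh1a2-/- and was at 3.58 FPKM in wild-type. Of the 5 measured target genes, Hes7 and Nrarp were therefore the ones past a cutoff, on opposite sides.

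**Figure D2:**
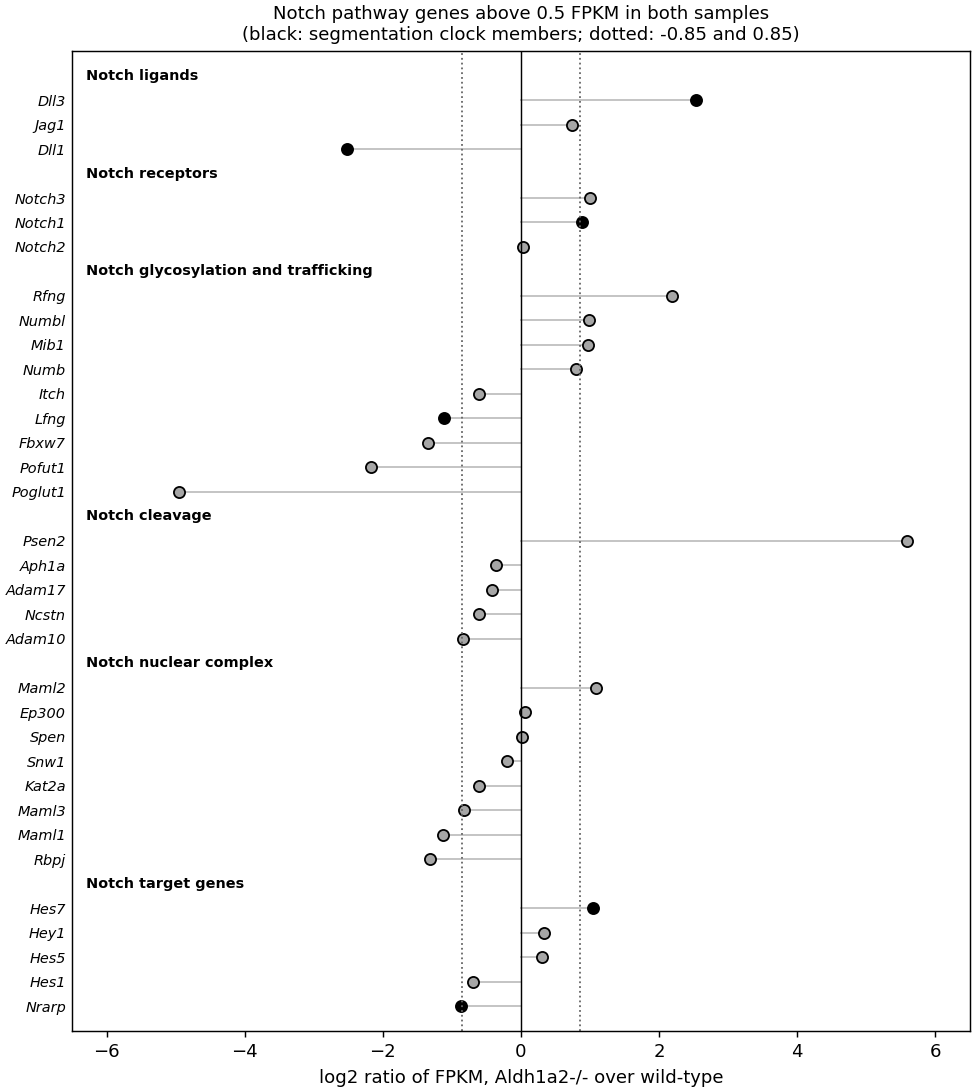
Log2 ratio of FPKM, Aldh1a2-/- over wild-type, for each measured gene of the Notch lists, grouped by role, with dotted lines at -0.85 and 0.85, black points for genes among the 10, and each point a single ratio without replicates. Ligands, modifiers and targets spread to both sides, whereas no measured receptor lies below 0.

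The machinery that carries the signal inward was mixed as well. Psen2, a catalytic subunit of gamma-secretase, was higher, at 25.8 FPKM in Aldh1a2-/- and 0.535 FPKM in wild-type (log2 ratio 5.59), just above the floor in the wild-type sample. Adam10, which sheds the outer part of Notch, was within the cutoffs at a log2 ratio of -0.84, and so were the related protease gene Adam17 (-0.42) and Ncstn, another subunit of gamma-secretase (-0.60). In the nucleus Rbpj, the DNA-binding partner of Notch, was lower at 3.18 FPKM in Aldh1a2-/- and 7.91 FPKM in wild-type (log2 ratio -1.31). Of the co-activators Maml1 was lower (-1.13), Maml2 higher (1.09) and Maml3 within the cutoffs (-0.83). Over all 42 genes of the Notch lists 33 were measured, of which 8 were lower, 9 higher and 16 within the cutoffs. The share past a cutoff was 51.5%, beside 45.6% of all measured genes and 52.1% of mitochondrial ribosomal protein genes, and the median log2 ratio was -0.20.

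Mesp2 (chr7:79810727-79813431, plus strand), which sets the segment border and the front identity of each somite, was listed at 0 in Aldh1a2-/- and was at 0.630 FPKM in wild-type, about 34 fragments. Ripply2 (chr9:87015537-87019916, plus strand) was listed at 0 in both, and its relative Ripply1, which acts in the same way, was at 5.82 FPKM in Aldh1a2-/- and listed at 0 in wild-type. Mesp1 was listed at 0 in both. Other genes of the anterior presomitic mesoderm and segment border were mostly lower where measured: of 5 measured genes of 11, 4 were lower and 1 was higher, beside 22.0% lower and 23.6% higher of all measured genes, with a median log2 ratio of -1.67. Foxc2, a forkhead factor needed with Foxc1 for segmentation, was at 1.15 FPKM in Aldh1a2-/- and 27.0 FPKM in wild-type (log2 ratio -4.55). Pcdh19, a protocadherin, was at 1.77 FPKM in Aldh1a2-/- and 7.68 FPKM in wild-type (-2.12), and Epha4, a receptor at segment borders, at 1.58 FPKM in Aldh1a2-/- and 5.02 FPKM in wild-type (-1.67). The exception was Snai1, a repressor of epithelial genes that also cycles with FGF signaling, at 13.0 FPKM in Aldh1a2-/- and 2.15 FPKM in wild-type (2.59).

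Among genes of the posterior presomitic mesoderm and tail bud more were higher than lower. Of 15 genes 9 were measured, of which 6 were higher, 2 were lower and 1 lay within the cutoffs, beside 23.6% higher and 22.0% lower of all measured genes, and their median log2 ratio was 1.20. Fgf8, the caudal growth factor, was at 32.6 FPKM in Aldh1a2-/- and 0.864 FPKM in wild-type (log2 ratio 5.24). Cdx2, a caudal homeobox gene, was at 36.7 FPKM in Aldh1a2-/- and 9.32 FPKM in wild-type (1.98). Nkx1-2, a gene of the caudal lateral epiblast, was at 22.8 FPKM in Aldh1a2-/- and 7.75 FPKM in wild-type (1.56), and the homeobox gene Evx1 was at 10.3 FPKM in Aldh1a2-/- and 3.54 FPKM in wild-type (1.54). T, the T-box gene of the primitive streak and notochord, was close to level at 21.0 FPKM in Aldh1a2-/- and 17.7 FPKM in wild-type (0.24). Like Tbx6, Fgf17, another caudal growth factor, was listed at 0 in wild-type and reached 17.0 FPKM in Aldh1a2-/-. Other genes of the list went the opposite way. Cyp26a1, which degrades RA, was listed at 0 in Aldh1a2-/- and was at 2.58 FPKM in wild-type. The signal Wnt5a was at 1.32 FPKM in Aldh1a2-/- and 3.61 FPKM in wild-type (-1.45), and Rspo3, which enhances Wnt signaling, was at 6.25 FPKM in Aldh1a2-/- and 12.7 FPKM in wild-type (-1.03). The study lists Fgf8 and Cdx2 with the ratios of these same samples, so those ratios are no independent evidence of their direction. From ChIP-seq of pooled trunks it also reports more of an activating and less of a repressive histone mark near both genes in Aldh1a2-/-. It also cites earlier work in which caudal Fgf8 and Cdx2 were increased when RA was lost. The place of the caudal cut sets how much of this tissue a trunk holds, and its part in the levels of Tbx6, Dll3 and Hes7 was not tested.

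The clock also has genes that cycle with Wnt and FGF signaling. Of 10 Wnt-phase genes, all measured, 2 were lower, 3 were higher and 5 lay within the cutoffs, with a median log2 ratio of 0.00. Thus 5 of 10 were past a cutoff, beside 45.6% of all measured genes. Dact1, a Wnt modulator, was lower at 4.57 FPKM in Aldh1a2-/- and 20.4 FPKM in wild-type (-2.16), and so was the receptor gene Tnfrsf19 at 12.2 FPKM in Aldh1a2-/- and 27.7 FPKM in wild-type (-1.18). Sp5, a Wnt target, was higher at 6.29 FPKM in Aldh1a2-/- and 2.13 FPKM in wild-type (1.56), as was the Wnt inhibitor Dkk1 at 1.40 FPKM in Aldh1a2-/- and 0.651 FPKM in wild-type (1.10). Of 9 FGF-phase genes 3 were higher, 1 was lower and 5 lay within the cutoffs, with a median of 0.63, and the share past a cutoff was 44.4%, again beside 45.6% of all measured genes. Spry4, which dampens FGF signaling as part of its feedback, stood at 9.24 FPKM in Aldh1a2-/- and 0.860 FPKM in wild-type (3.43). The study also reports differential expression of Spry4 between such trunks by quantitative RT-PCR. Efna1, an ephrin ligand, was higher at 2.79 FPKM in Aldh1a2-/- and 1.19 FPKM in wild-type (1.23), and Bcl2l11, a promoter of cell death, was lower at 4.44 FPKM in Aldh1a2-/- and 11.2 FPKM in wild-type (-1.33).

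**Figure D3:**
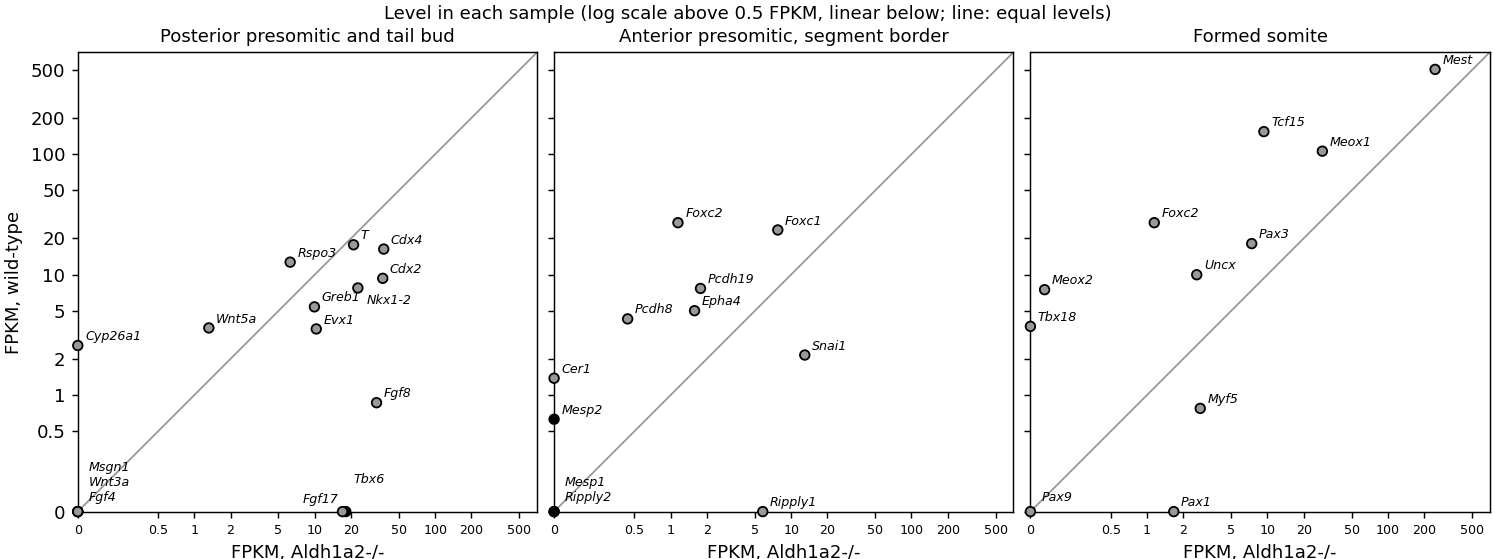
FPKM in the Aldh1a2-/- sample (horizontal axis) against the wild-type sample (vertical axis) for genes of the posterior presomitic mesoderm and tail bud, the anterior presomitic mesoderm and segment border, and the formed somite, on axes that are logarithmic above 0.5 FPKM and linear below, with the line of equal levels and black points for the genes Tbx6, Msgn1, Mesp2 and Ripply2. Most tail bud genes lie below the line (higher in Aldh1a2-/-), with Tbx6 and Fgf17 at 0 in wild-type, and most border and somite genes lie above it.

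Markers of the cells that could be present differed between the samples for some cell types and not for others. Of 7 measured genes of the formed somite, 6 were lower and 1, Myf5, was higher, beside 22.0% lower and 23.6% higher of all measured genes. Levels summed over all 11 genes were 300 FPKM in Aldh1a2-/- and 833 FPKM in wild-type. Most of each sum was Mest alone, at 247 FPKM in Aldh1a2-/- and 506 FPKM in wild-type. Foxc2 was counted both here and among the segment border genes. Tcf15, needed for the epithelial somite, had a log2 ratio of -4.04, Uncx, a gene of the caudal part of each somite, -1.95 and the somite homeobox gene Meox1 -1.89. Neural tube genes, Irx3, Sox2 and Shh among the highest, summed to 85.2 FPKM in Aldh1a2-/- and 101 FPKM in wild-type, with 2 of 8 measured genes lower, none higher and 6 within the cutoffs (25.0% past a cutoff, beside 45.6% of all measured genes). Sox2 was at 10.9 FPKM in Aldh1a2-/- and 19.8 FPKM in wild-type (-0.86). It was just past a cutoff that the study had set so as to include it. Pax6 was lower at 1.76 FPKM in Aldh1a2-/- and 14.3 FPKM in wild-type, and Olig2, Nkx6-1 and Neurog2 were listed at 0 in Aldh1a2-/- and stood at 6.19, 3.08 and 1.15 FPKM in wild-type. Dll1, Dll3, Notch1, Lfng and Nrarp are also used in the neural tube. Endothelial genes summed to 122 FPKM in Aldh1a2-/- and 81.1 FPKM in wild-type, with Kdr level at 19.5 FPKM in Aldh1a2-/- and 22.5 FPKM in wild-type and Cdh5 higher at 17.8 FPKM in Aldh1a2-/- and 8.52 FPKM in wild-type. Primitive red blood cell genes, led by the globin Hba-x, summed to 5863 FPKM in Aldh1a2-/- and 303 FPKM in wild-type, and yolk sac visceral endoderm genes, led by Apoa1, to 5362 FPKM in Aldh1a2-/- and 431 FPKM in wild-type. Of 10 heart genes, whose tissue was removed, 2 were measured and both were higher, among them Tnnt2 at 29.8 FPKM in Aldh1a2-/- and 8.82 FPKM in wild-type. The heart genes outside the floor went both ways: Tnni1 was at 13.4 FPKM in Aldh1a2-/- and 0.436 FPKM in wild-type, Actc1 was at 0.0531 FPKM in Aldh1a2-/- and 6.13 FPKM in wild-type, Myl4 was listed at 0 in Aldh1a2-/- and was at 7.15 FPKM in wild-type, and Nkx2-5 was listed at 0 in both. The part of these cell types in the values of the 10 genes was not tested.

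The weight that a single ratio can bear depends on the spread of all genes at its level. Of 5 equal classes of mean level, Dll1 and Nrarp lay in the lowest, where 68.1% of genes were past a cutoff. Dll3 and Hes7 lay in the second class (57.1%), and Lfng and Notch1 in the third (45.8%). Of all measured genes 4.13% had a lower ratio than Dll1 and 4.67% a higher ratio than Dll3. A lower ratio than that of Lfng was found for 16.9% and than that of Nrarp for 21.6%, and a higher ratio than that of Hes7 for 19.3% and than that of Notch1 for 22.7%. Ratios as far from 0 as that of Hes7 were shown by 37.4% of measured genes and by 33 of 73 mitochondrial ribosomal protein genes (45.2%). Dll1 and Dll3 thus stood toward the ends of the distribution of all measured genes, whereas Hes7, Lfng, Notch1 and Nrarp had ratios that many genes shared. Where each gene stood among genes of its own class of mean level was not computed.

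**Figure D4:**
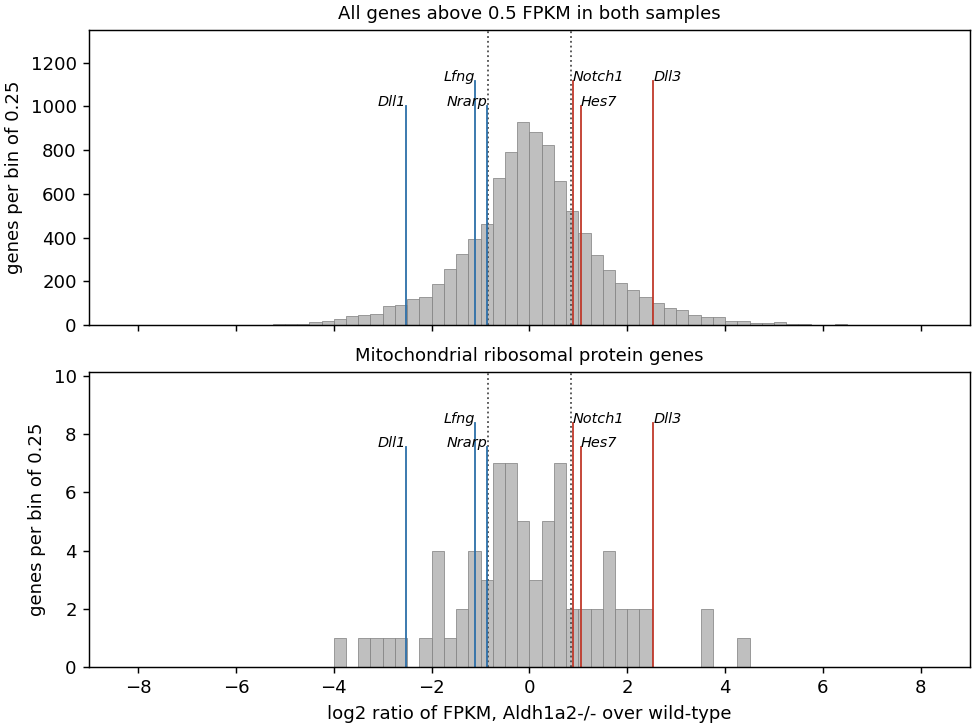
Number of genes per bin of 0.25 in the log2 ratio of FPKM, Aldh1a2-/- over wild-type, for all 9506 measured genes (top) and for 73 measured mitochondrial ribosomal protein genes (bottom), with dotted lines at the cutoffs and solid lines at the 6 measured genes of the presomitic mesoderm and clock, red where higher and blue where lower in Aldh1a2-/-. Dll1 and Dll3 lie toward the tails of the upper distribution, and the other 4 lie where many genes lie.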

How the data were processed

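RNA-seq of embryonic trunk was read from 1 gene table on mm10. The authors deposited FPKM values for 1 Aldh1a2-/- and 1 wild-type sample; per the submitters' processing notes, STAR, Cufflinks and Cuffdiff were used, whereas the paper's methods name TopHat and edgeR. The labels describe both a stranded total RNA kit and a poly(A) kit. Columns with the authors' own fold change, test statistic, p-value, q-value and significance call were not used, and their status was used only in an alternative. In the copy used here 1 line was empty.

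Log2 ratios were taken without a pseudocount above 0.5 FPKM in both samples. The genes and lists were chosen with earlier results of these data known. Text names all 10 genes, up to 4 measured genes with the widest ratio from each pathway list and up to 4 of the highest from each marker list. Other genes (Ypel3, Timm50, Ppp4c, T, Hes5, Mfng, Foxc1, Wnt5a, Rspo3, Myf5, Actc1, those within the cutoffs in short lists and those listed at 0) were added after their values were seen, and 1 gene of the Notch lists was left out and is not reported here.

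Depth was read from the lowest well-filled step of low FPKM values, taken as 1 fragment, at 13 genes (Aldh1a2-/-) and 18 genes (wild-type) of 5639 with 1 transcript. Fragments per gene follow from it and from the longest coding transcript in GENCODE M21, and their intervals cover counting error only. Promoters are from RefSeq (GRCm38.p6), matched by symbol for 10 of 10 genes, and 6 motifs were searched on both strands. The scripts were tested on simulated data with known lengths and many planted low values. That test does not show how good the depth estimate is here, where few genes gave the step. The 11 alternatives changed the floor, pseudocount, scaling, cutoffs or status. Python 3.11.15, pandas 2.3.3, scipy 1.17.1 and matplotlib 3.10.9 were used. No ChIP-seq data were analysed here.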

Additional observations from a re-analysis of the deposited data

How the results depend on the processing

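No direction of a measured gene of the presomitic mesoderm and clock turned round under the 11 alternatives, and none could. A floor, cutoff, status filter or pseudocount cannot change the sign of a ratio. The scalings moved log2 ratios by at most 0.16, whereas the smallest absolute log2 ratio of the measured genes was 0.87. Floors and the status filter also leave a ratio as it is, so the counts below describe the calls and are no test of direction. Dll1 (-2.61 to -1.85) and Dll3 (2.23 to 2.69) were past a cutoff in 10 of the 10 alternatives that give them a value, and Hes7 (0.93 to 1.21) and Lfng (-1.21 to -0.96) in 11 of 11. Notch1 ranged between 0.80 and 1.05 and was past the cutoff in 8 of 11, falling within it with cutoffs of -1 and 1, a pseudocount of 1 (0.82) and upper quartile scaling. Nrarp ranged between -0.97 and -0.59 and was past the cutoff in 5 of 10. With a floor of 1 FPKM only 1 of the 10 genes counted as listed at 0 in 1 sample, in place of 2, because Mesp2 fell below that floor. With a floor of 5 FPKM 1 gene was lower in place of 3, the median was 0.89 in place of 0.01, 1 gene counted as listed at 0 in 1 sample, and 3 genes of the Notch lists were lower and 5 higher in place of 8 and 9, since fewer genes were measured. With the floor in either sample and a pseudocount of 0.5, 13 genes of the Notch lists were lower. On the TPM scale the log2 ratios moved by 0.16, with 1805 of all measured genes lower and 2610 higher, and with upper quartile scaling they moved by -0.09, with 2265 lower and 2042 higher. No paired analysis was possible because each genotype has 1 sample, and for the same reason no replicate could be left out.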
